A study of Mus musculus with 12 samples.

Results

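The 9 forkhead genes Foxq1, Foxf1, Foxf2, Foxc1, Foxc2, Foxd1, Foxs1, Foxp1 and Foxo1 were followed in murine lung mesenchymal cells after reduction of Klf4, a zinc finger transcription factor. They were taken by symbol as 9 of the 52636 genes listed in each of 2 deposited tables, 1 per cell type, and each symbol was found once per table. The cell types were smooth muscle cells (SMCs) and PDGFR-β+ cells, each treated with scrambled (Scr) RNA as control or with siRNA against Klf4 (siKlf4). Bulk RNA-seq was done on 3 libraries of each of the 4 groups, 12 in all.

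The SMCs were a line bought from CellBiologics, of C57BL/6 strain and tracheal tissue in the labels, titled there as lung airway SMCs, and with no age given. The PDGFR-β+ cells came from the lungs of mice labelled C57BL/6 and 12 weeks old. Per the study's methods they were Zs+ cells sorted from tamoxifen-induced Pdgfrb-CreERT2, ROSA26R(Zs/+) mice, so that the Pdgfrb promoter chose the cells and several mesenchymal cell types may be among them. All cells were grown in culture, received their RNA at 50 nM for 6 h and were kept for 72 h after that. The genotype label was WT for Scr and Klf4 KD for siKlf4 in both cell types, and no group label names a Klf4 deletion. A sorting protocol given with every sample also covers antibody-stained cells of Pdgfrb-CreERT2, Klf4(flox/flox) mice and does not say which samples each sort served. The SMC libraries thus came from 1 commercial line, and cell type, culture and deposited table cannot be told apart.

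Forkhead factors bind DNA through a winged helix domain and are sorted by its sequence into classes named by letters. FoxF factors are made in the mesenchyme next to the gut and airway epithelium, where hedgehog ligands from the epithelium raise them, and FoxC factors act in mesenchyme of the vessels, heart and skeleton. FoxO factors are held in the cytoplasm by AKT phosphorylation and, when growth factor signaling falls, drive genes of cell cycle exit, metabolism and oxidant defence.

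Levels are given as TPM, a transcript abundance that scales each gene by its length and each library to the same total, so that genes can be compared within a library. Each library listed 20590 to 21780 genes above 0. Klf4 fell from 93.6 ± 3.57 to 20.5 ± 5.31 TPM in SMCs and from 141.5 ± 6.16 to 12.96 ± 0.782 TPM in PDGFR-β+ cells (SD, n = 3), which left 21.9% and 9.16% of the Scr level. In SMCs the summed level of 8 smooth muscle markers was 1495 to 2284 TPM with Scr and 3411 to 4174 TPM with siKlf4, with 6 of the 7 tested higher by the limma test described below. Of all genes tested, 15.6% were called higher and 12.9% lower in SMCs, and 25.3% and 15.3% in PDGFR-β+ cells. In PDGFR-β+ cells the same sum was larger at the start, 5551 to 6408 TPM with Scr and 4708 to 5003 TPM with siKlf4, with 3 of the 7 tested higher (Myh11, Smtn and Lmod1) and 3 lower (Acta2, Tagln and Des), so these markers do not set the SMCs apart. Myocd, a coactivator that defines smooth muscle, was at most at 0.213 TPM in any library of either cell type. The sum of 8 mesenchymal markers was 7121 to 7204 TPM with Scr and 5152 to 5562 TPM with siKlf4 in SMCs, and 6893 to 7846 and 5780 to 6945 TPM in PDGFR-β+ cells, with 4 of the 8 lower and 0 higher in each cell type. Of 9 pericyte markers the sum was 78.2 to 118.5 TPM with Scr and 61.5 to 72.9 TPM with siKlf4 in SMCs, and 44.7 to 63.8 and 34.9 to 40.7 TPM in PDGFR-β+ cells, with Higd1b under 0.1 TPM throughout. The sum of 8 epithelial markers was at most 1.37 TPM. The sum of 10 endothelial markers was 2.65 to 5.985 TPM with Scr and 4.77 to 6.25 TPM with siKlf4 in SMCs. In PDGFR-β+ cells it was 15.4 to 18.5 and 14.2 to 16.3 TPM. Tie1, Cldn5 and Sox17 were under 0.1 TPM in each library. Of the 2 tested in each cell type 1 was called, higher with siKlf4. In SMCs that was Kdr, at 0.502 to 0.798 TPM with Scr and 2.69 to 3.12 TPM with siKlf4. In PDGFR-β+ cells that was Tek, at 1.17 to 1.42 and 2.06 to 3.14 TPM, while Kdr held most of the sum (11.8 to 17.1 TPM). Macrophage markers summed to 28.7 to 29.9 TPM in PDGFR-β+ cells with Scr and 18.7 to 22.8 TPM with siKlf4, against 4.44 to 7.19 TPM in SMCs. Of the 3 tested in PDGFR-β+ cells, Csf1r and Lyz2 were lower. Cd68 was not called, at 6.04 to 8.69 TPM with Scr and 8.20 to 9.62 TPM with siKlf4. Lyz2 alone was 17.3 to 20.3 TPM with Scr and 9.49 to 13.6 TPM with siKlf4, so it carried most of the sum. Mesothelial markers fell with siKlf4, from 17.0 to 26.7 down to 7.03 to 9.99 TPM in SMCs and from 14.2 to 15.9 down to 3.08 to 3.34 TPM in PDGFR-β+ cells (2 of 2 and 3 of 3 tested markers lower). Whether these shifts take part in the forkhead values below was not tested.

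With Scr RNA, Foxp1 and Foxf1 were the most abundant of the 9 in both cell types, and Foxq1 and Foxd1 were near or under 1 TPM. In SMCs the order of the mean levels was Foxp1 (68.9 TPM), Foxf1 (58.4), Foxc1 (26.2), Foxo1 (17.6), Foxf2 (14.3), Foxc2 (10.5), Foxs1 (5.25), Foxd1 (0.659) and Foxq1 (0.353). Neighbours in that order whose libraries overlapped were Foxp1 with Foxf1 and Foxf2 with Foxc2. In PDGFR-β+ cells the order was Foxp1 (70.7 TPM), Foxf1 (45.5), Foxf2 (13.6), Foxc2 (9.44), Foxc1 (8.93), Foxs1 (7.72), Foxo1 (6.97), Foxq1 (0.914) and Foxd1 (0.0242). There each gene from Foxf2 to Foxo1 overlapped its neighbour in the order, so that these 5 form a run without clear steps.

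Set side by side, mean Scr levels in SMCs were 2.94 times those in PDGFR-β+ cells for Foxc1, 2.53 times for Foxo1 and 1.28 times for Foxf1, and the libraries of the 2 cell types did not overlap for these genes. Foxq1 went the other way, with the PDGFR-β+ mean 2.59 times that of SMCs and no overlap. Foxd1, which marks the embryonic stroma that gives rise to pericytes, was 0.634 to 0.695 TPM in SMCs and was listed at 0 in 2 of the 3 PDGFR-β+ libraries. Foxf2, Foxc2, Foxs1 and Foxp1 overlapped. These levels are a description without a test, since each cell type has its own table.

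**Figure D1:**
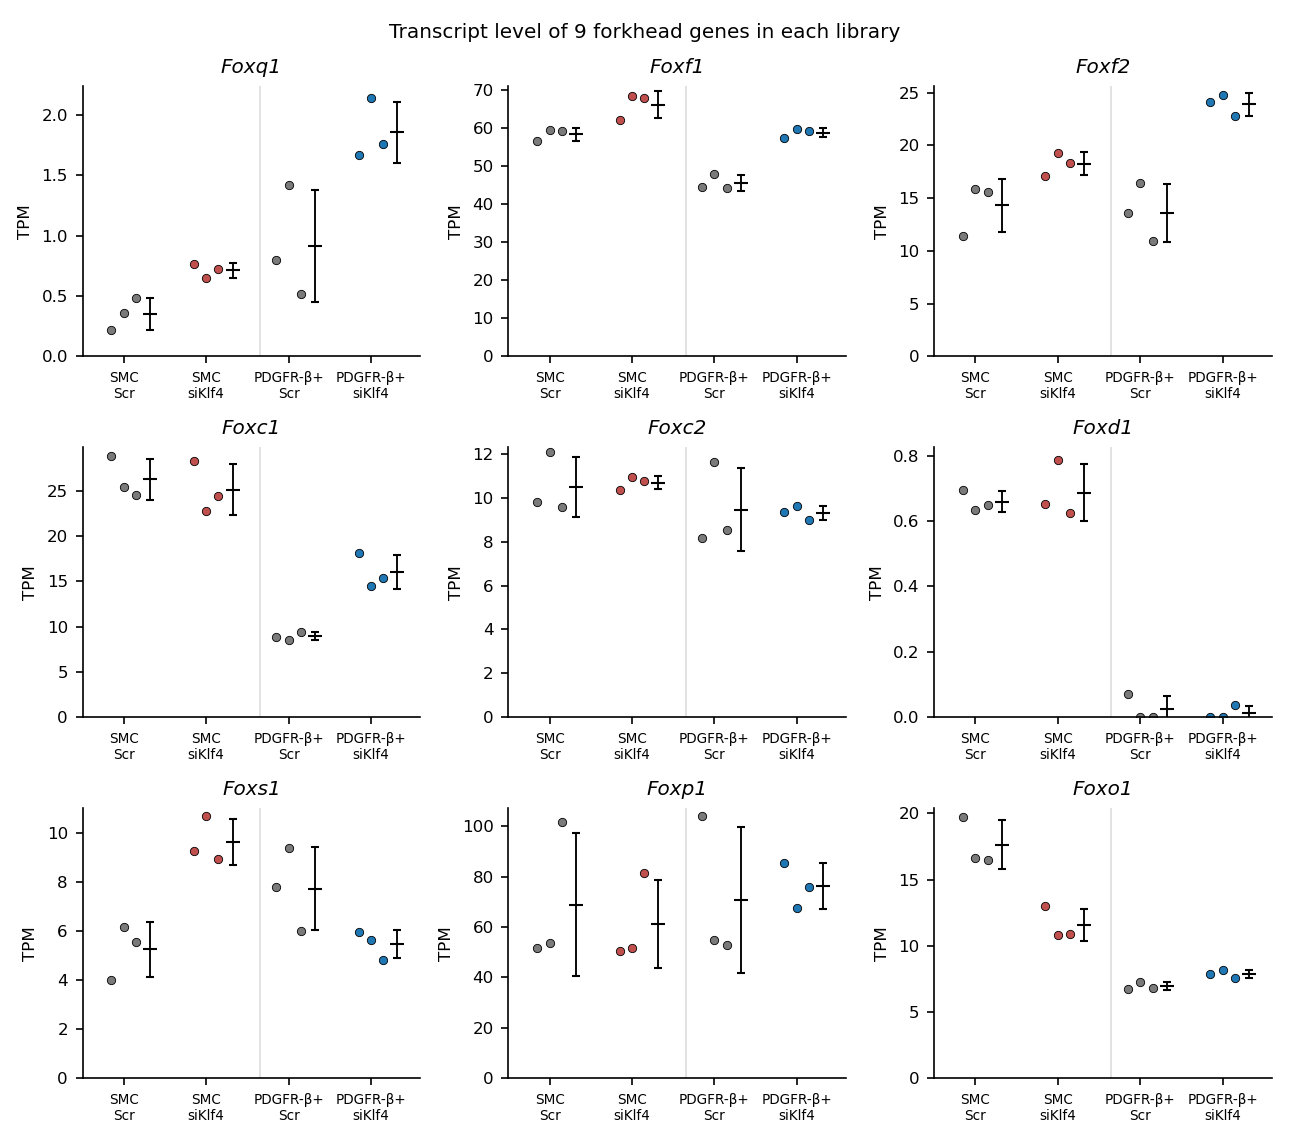
Level of each of the 9 forkhead genes in TPM (vertical axis, from 0) in each library (points, 3 per group, groups along the horizontal axis), with the mean and SD of each group to the right of its points. Foxf1, Foxf2 and Foxc1 are higher with siKlf4 in PDGFR-β+ cells, Foxs1 is higher and Foxo1 lower with siKlf4 in SMCs, and Foxp1 has a single high library in 3 of the 4 groups.

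The effect of siKlf4 was tested by limma on log2(TPM + 1) within each cell type, where a gene averaged 1 TPM or more over its 6 libraries, with Benjamini-Hochberg adjustment over all genes tested and a threshold of 0.05. In SMCs, 7 of the 9 genes entered the test, and 1 rose (Foxs1) and 1 fell (Foxo1). Of all 13709 genes tested there, 28.5% were called, 15.6% higher and 12.9% lower, so 2 of 7 is near the background share. In PDGFR-β+ cells 8 of the 9 entered, and 3 rose (Foxf1, Foxf2 and Foxc1) and 0 fell. Of all 13694 genes tested, 40.6% were called, 25.3% higher and 15.3% lower, so the count of 3 of 8 is near the background too. Of all calls in PDGFR-β+ cells 62.3% were higher, and 48.2% after median-ratio scaling of the libraries, while the 3 forkhead calls held under that scaling. The median log2 fold change of the tested members was 0.031 in SMCs and 0.27 in PDGFR-β+ cells, and that of all genes was 0.017 and 0.097. In bulk RNA, fewer cells of a type and less RNA per cell cannot be told apart.

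Foxf1 and Foxf2, the FoxF pair, were higher with siKlf4 in PDGFR-β+ cells. Foxf1 is required for lung mesenchyme and its vessels, and Foxf2 for the mesenchyme of the gut and palate and for brain pericytes. In PDGFR-β+ cells Foxf1 was 44.5, 47.9 and 44.2 TPM in Scr libraries and 57.4, 59.9 and 59.2 TPM in siKlf4 libraries. The groups were apart by more than their own width, and the log2 fold change was 0.36 (SE 0.069, adjusted p = 0.00503, limma). Foxf2 was 13.6, 16.4 and 10.9 TPM in Scr libraries and 24.1, 24.8 and 22.7 TPM in siKlf4 libraries, a log2 fold change of 0.78 (SE 0.14, adjusted p = 0.00387, limma). For both genes the lowest siKlf4 library exceeded the highest Scr library.

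In SMCs the same genes were higher in each siKlf4 library but did not pass the threshold. Foxf1 was 56.5, 59.5 and 59.2 TPM in Scr libraries and 62.0, 68.5 and 68.0 TPM in siKlf4 libraries, with a log2 fold change of 0.18 (SE 0.07, adjusted p = 0.101, limma). Foxf2 was 11.4, 15.9 and 15.6 TPM in Scr libraries and 17.1, 19.3 and 18.3 TPM in siKlf4 libraries, with a log2 fold change of 0.34 (SE 0.135, adjusted p = 0.0999, limma). Among all genes tested the groups did not overlap in 47.1% in SMCs and 53.8% in PDGFR-β+ cells. The first value given for each SMC group is from the library whose column carries no replicate number, and with a term for that naming Foxf1 and Foxf2 passed in SMCs (adjusted p = 0.0258 and 0.0244, limma). Foxf1 also passed over the numbered SMC columns alone (0.20, adjusted p = 0.0451, limma). The difference of the siKlf4 effect, SMCs minus PDGFR-β+ cells, was -0.19 for Foxf1 (95% interval -0.38 to 0.01, adjusted p = 0.132, limma) and -0.44 for Foxf2 (-0.89 to 0.009, adjusted p = 0.121, limma). The Foxf2 difference passed without the unnumbered Scr library of SMCs (-0.58, adjusted p = 0.0333) and without Scr replicate 2 of PDGFR-β+ cells (-0.57, adjusted p = 0.0428).

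The ratio of the pair within each library does not change when the whole library is scaled by a single factor. Foxf1 was 2.92 to 4.06 times Foxf2 in PDGFR-β+ cells with Scr and 2.39 to 2.60 times with siKlf4, and in SMCs the ratio was 3.74 to 4.93 with Scr and 3.55 to 3.71 with siKlf4. The siKlf4 ratios were below the Scr ratios in both cell types (exact two-sided permutation p = 0.1, the smallest that 3 against 3 allows). In log2 units the ratio differed on average by -0.46 in PDGFR-β+ cells and by -0.19 in SMCs, and the latter was -0.056 without the unnumbered Scr library.

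Foxc1 and Foxc2, the FoxC pair, share most of their winged helix and act together in vessel, heart and kidney development, and they parted here. In PDGFR-β+ cells Foxc1 was 8.86, 8.52 and 9.42 TPM in Scr libraries and 18.2, 14.5 and 15.4 TPM in siKlf4 libraries. It rose by a log2 fold change of 0.77 (SE 0.107, adjusted p = 0.00129, limma), with a gap between the groups larger than either group's range. Foxc2 was 8.16, 11.6 and 8.55 TPM in Scr libraries and 9.34, 9.63 and 8.96 TPM in siKlf4 libraries. Its groups overlapped, and its log2 fold change was -0.0038 (95% interval -0.32 to 0.32, adjusted p = 0.985, limma).

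In SMCs, where Foxc1 was already higher with Scr, it was 28.8, 25.4 and 24.5 TPM in Scr libraries and 28.2, 22.7 and 24.4 TPM in siKlf4 libraries. Those groups overlapped (log2 fold change -0.064, 95% interval -0.32 to 0.19, adjusted p = 0.687, limma). The siKlf4 effect on Foxc1 was lower in SMCs than in PDGFR-β+ cells by 0.84 on the log2 scale (SE 0.152, adjusted p = 0.00159, limma). Of all 13032 genes tested for this difference 33% were called (14.5% with a higher effect in SMCs and 18.5% with a lower one), against 3 of the 7 members tested (Foxc1, Foxs1 and Foxo1). Foxc2 in SMCs was 9.79, 12.1 and 9.60 TPM in Scr libraries and 10.4, 10.9 and 10.8 TPM in siKlf4 libraries, again overlapping, and the contrast between the cell types was 0.035 (95% interval -0.36 to 0.43, adjusted p = 0.899, limma). The Foxc1 to Foxc2 ratio within a library was 0.734 to 1.10 in PDGFR-β+ cells with Scr and 1.51 to 1.94 with siKlf4, against 2.10 to 2.94 and 2.08 to 2.73 in SMCs. Foxc1 thus was at about the level of Foxc2 in the PDGFR-β+ Scr libraries and above it in the other groups.

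**Figure D2:**
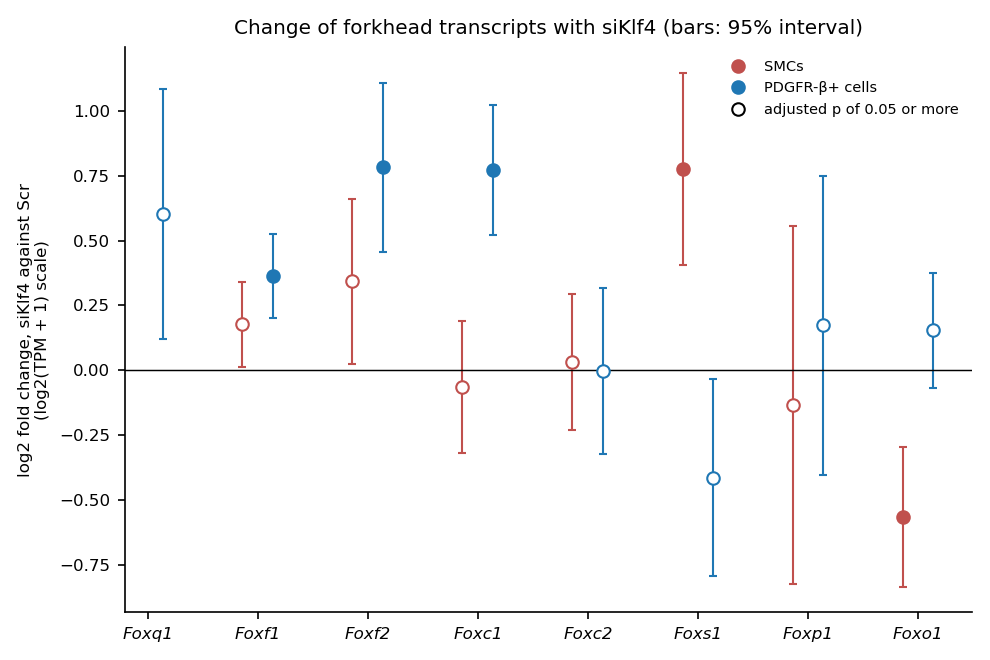
Log2 fold change of siKlf4 against Scr on the log2(TPM + 1) scale (vertical axis) for the forkhead genes that entered the test (horizontal axis), in SMCs (red) and PDGFR-β+ cells (blue), with 95% intervals as bars and open points where the adjusted p was 0.05 or more. Foxf1, Foxf2 and Foxc1 are called higher in PDGFR-β+ cells, and Foxs1 at 0.78 and Foxo1 at -0.57 are the called genes of SMCs.

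Foxq1, which is known from hair, stomach and tumor epithelium, was low in both cell types. In SMCs it was 0.218, 0.358 and 0.483 TPM in Scr libraries and 0.764, 0.645 and 0.726 TPM in siKlf4 libraries, under the minimum for the test. The groups did not overlap (exact two-sided permutation p = 0.1), as in 4.84% of the genes under the minimum for siKlf4 above Scr. In PDGFR-β+ cells it was 0.802, 1.42 and 0.515 TPM in Scr libraries and 1.67, 2.15 and 1.76 TPM in siKlf4 libraries, also without overlap. The log2 fold change there was 0.60 (SE 0.206, adjusted p = 0.0505, limma), just short of a call, and without Scr replicate 2 it was 0.79 (adjusted p = 0.0161). At such levels log2(TPM + 1) understates the change. The level of Foxq1 is uncertain for another reason: it shares 3200 exon bases with A530084C06Rik on the other strand, which was at 0.245 to 0.714 TPM, and whether reads were assigned by strand was not given in the sources used here.

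Foxs1, which is made in pericytes and neural crest derivatives, had effects of opposite sign in the 2 cell types. In SMCs it was 4.01, 6.17 and 5.56 TPM in Scr libraries and 9.25, 10.7 and 8.92 TPM in siKlf4 libraries, and it rose by a log2 fold change of 0.78 (SE 0.157, adjusted p = 0.012, limma). The PDGFR-β+ values were 7.80, 9.38 and 5.98 TPM in Scr libraries and 5.96, 5.63 and 4.83 TPM in siKlf4 libraries. Each siKlf4 library was there below each Scr library, though the nearest pair was close, and the log2 fold change was -0.41 (SE 0.163, adjusted p = 0.0776, limma). Without Scr replicate 3 that value was -0.57 (adjusted p = 0.0235), and with median-ratio scaling -0.50 (adjusted p = 0.031). The siKlf4 effect in SMCs exceeded that in PDGFR-β+ cells by 1.19 on the log2 scale (SE 0.236, adjusted p = 0.00266, limma). Of the pericyte markers in SMCs, 3 of the 8 tested were lower with siKlf4 and 1 was higher, against 12.9% and 15.6% of all genes, and their sum was lower in each siKlf4 library, as given above. In PDGFR-β+ cells 2 of the 5 tested were lower and 1 was higher, against 15.3% and 25.3% of all genes, and their sum was lower too. Foxd1 was 0.695, 0.634 and 0.649 TPM in Scr libraries and 0.650, 0.786 and 0.624 TPM in siKlf4 libraries in SMCs, where the groups overlapped. In PDGFR-β+ cells Foxd1 was listed at 0 in 4 of the 6 libraries and at most at 0.0727 TPM.

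The 2 forkhead gene clusters of mesenchyme hold 5 of the 9 genes. In GRCm38, on chromosome 13, Foxq1 (chr13:31556134-31560976), Foxf2 (chr13:31625816-31631403) and Foxc1 (chr13:31806633-31812476) lie on the forward strand in this order. Foxq1 starts 69.7 kb before Foxf2, and Foxc1 starts 180.8 kb after it. On chromosome 8, Foxf1 (chr8:121084386-121088144), Foxc2 (chr8:121116171-121118895) and Foxl1 (chr8:121127940-121130644) also lie on the forward strand, and the long noncoding RNA Fendrr starts 1.3 kb before Foxf1 on the other strand. The remaining members lie alone, Foxd1 also on chromosome 13, Foxs1 on chromosome 2, Foxp1 on chromosome 6 and Foxo1 on chromosome 3.

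Fendrr, which is needed for the development of heart, body wall and lung, did not move with Foxf1 in SMCs. There it was 31.2, 29.6 and 32.6 TPM in Scr libraries and 17.3, 15.7 and 18.2 TPM in siKlf4 libraries, and it fell by 0.83 on the log2 scale (SE 0.0871, adjusted p = 0.00157, limma). Foxf1 was not called in SMCs (0.18, adjusted p = 0.101, limma). Its lowest siKlf4 library exceeded its highest Scr library, and groups did not overlap in 47.1% of all genes tested there. The PDGFR-β+ values of Fendrr were 6.10, 4.82 and 6.61 TPM in Scr libraries and 12.4, 12.1 and 10.8 TPM in siKlf4 libraries, and Fendrr rose by 0.91 (SE 0.129, adjusted p = 0.00144, limma). With siKlf4 the 2 cell types thus came closer in Fendrr from both sides. The difference of the effects, SMCs minus PDGFR-β+ cells, was -1.74 (SE 0.154, adjusted p = 1.5e-05, limma). The Fendrr to Foxf1 ratio was 0.497 to 0.553 with Scr and 0.229 to 0.278 with siKlf4 in SMCs, and 0.101 to 0.150 and 0.182 to 0.216 in PDGFR-β+ cells, with no overlap within either cell type (exact two-sided permutation p = 0.1 in each).

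The other neighbours that entered the test moved less. Gm11379, an antisense gene 171.7 kb after the start of Foxf2, was under the minimum for the test, at 0.586, 0.995 and 0.589 TPM in Scr libraries and 0.0862, 0.514 and 0.179 TPM in siKlf4 libraries of SMCs. Its groups did not overlap, as in 6.32% of the genes under the minimum for siKlf4 below Scr, and it was listed at 0 in each PDGFR-β+ library. Mthfsd, 24.0 kb from Foxf1 and between it and Foxc2, was not called (log2 fold change 0.26 in SMCs, -0.016 in PDGFR-β+ cells, adjusted p = 0.23 and 0.888, limma). Foxl1, a FoxL factor of subepithelial mesenchyme in the gut, was 0.875 to 1.48 TPM in SMCs and 1.28 to 3.04 TPM in PDGFR-β+ cells and was called in neither. On chromosome 13 the lincRNA 1700018A04Rik, whose start is 24 bases from that of Foxf2 on the other strand, was 0.616 to 1.64 TPM and was called in neither cell type, although Foxf2 rose in PDGFR-β+ cells. Gmds, a GDP-mannose dehydratase beyond Foxc1, fell by 0.29 in SMCs (adjusted p = 0.0348, limma), a call that was lost on leaving out the unnumbered Scr library, Scr replicate 2 or 3, or siKlf4 replicate 2 or 3 (adjusted p up to 0.122), with no minimum level (0.0506) and with the replicate block over the numbered columns (0.0528). Its value in PDGFR-β+ cells was -0.19 (adjusted p = 0.123, limma). In PDGFR-β+ cells the calls within each cluster were therefore uneven, with Fendrr and Foxf1 called but not Foxc2 or Foxl1, and Foxf2 and Foxc1 called but not Foxq1. Foxq1 was just short of the threshold (log2 fold change 0.60, adjusted p = 0.0505, limma), so these forkhead genes of chromosome 13 differed in call and not in direction.

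**Figure D3:**
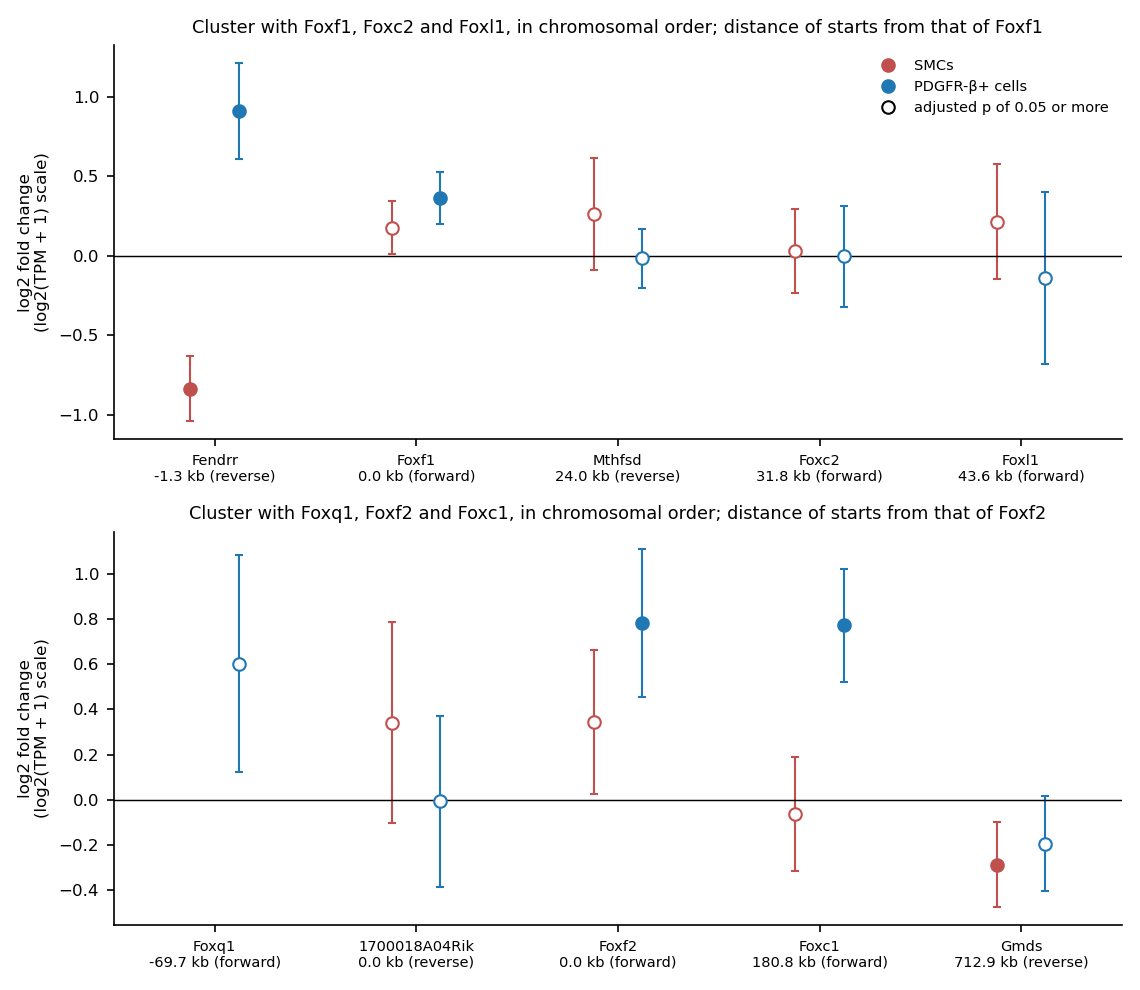
Log2 fold change of siKlf4 against Scr on the log2(TPM + 1) scale (vertical axes) for the tested genes of the 2 forkhead clusters in chromosomal order (horizontal axes, evenly spaced, with the distance of each gene's start from that of Foxf1 or Foxf2 in kb and its strand), in SMCs (red) and PDGFR-β+ cells (blue), with 95% intervals and open points where the adjusted p was 0.05 or more. Fendrr lies at -0.83 in SMCs and 0.91 in PDGFR-β+ cells, and Foxf2 and Foxc1 lie at 0.78 and 0.77 in PDGFR-β+ cells.

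**Figure D4:**
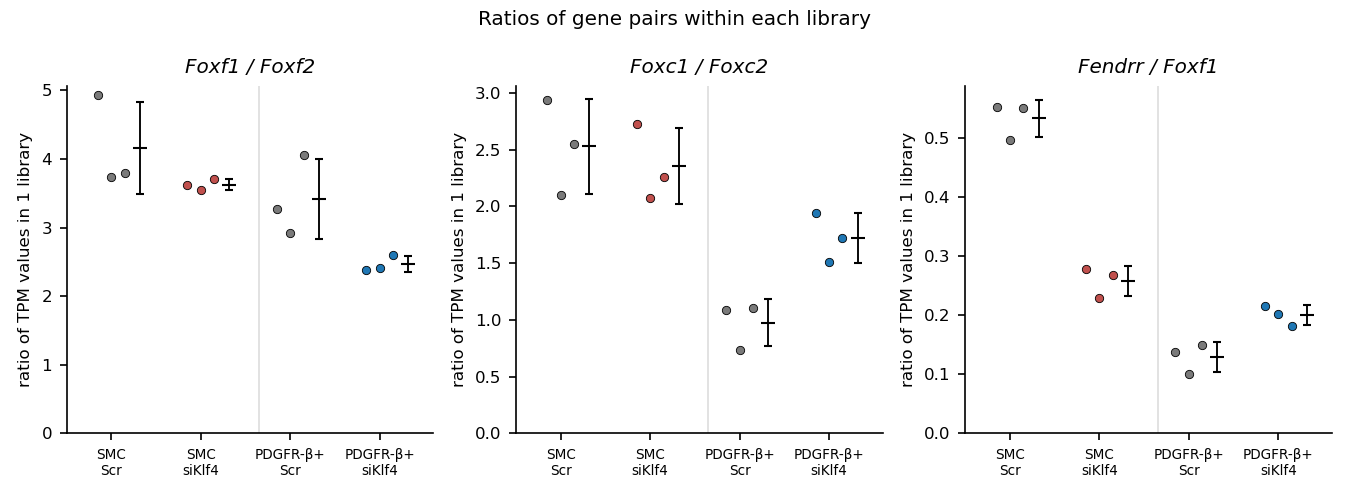
Ratio of the TPM values of 2 genes within a library (vertical axes, from 0) for Foxf1 over Foxf2, Foxc1 over Foxc2 and Fendrr over Foxf1, with 1 point per library, groups along the horizontal axes, and the mean and SD beside each group. The Fendrr ratio lies between 0.229 and 0.278 in SMCs with siKlf4, below each Scr library, and between 0.182 and 0.216 in PDGFR-β+ cells with siKlf4, above each Scr library.

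The promoters of Foxf2 and Foxc1, cluster neighbours that rose together in PDGFR-β+ cells, and of Foxo1, which fell in SMCs, are shown for the CACCC box, a core that Krüppel-like factors such as KLF4 bind. Of the 9 genes 5 had a RefSeq promoter in the table used here, with 7 promoters in all. Each run holds the 250 bases before the RefSeq start in GRCm38.p6, 5′ to 3′ on the forward strand, at chr13:31625566-31625815 for Foxf2, chr13:31806396-31806645 for Foxc1 and chr3:52268087-52268336 for Foxo1. The Foxc1 run reaches a few bases past the GENCODE start given above. Capitals mark CACCC or its reverse complement GGGTG.
Foxf2: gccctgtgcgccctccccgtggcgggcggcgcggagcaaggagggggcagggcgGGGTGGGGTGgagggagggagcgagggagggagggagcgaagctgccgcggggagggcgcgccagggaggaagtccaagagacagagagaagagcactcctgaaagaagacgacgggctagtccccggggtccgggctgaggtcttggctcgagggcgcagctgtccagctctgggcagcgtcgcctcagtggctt
Foxc1: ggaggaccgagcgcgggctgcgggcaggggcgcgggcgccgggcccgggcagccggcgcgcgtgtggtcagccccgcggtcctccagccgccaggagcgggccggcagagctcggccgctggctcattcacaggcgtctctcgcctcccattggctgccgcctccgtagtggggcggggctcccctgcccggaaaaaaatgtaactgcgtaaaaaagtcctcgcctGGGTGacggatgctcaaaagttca
Foxo1: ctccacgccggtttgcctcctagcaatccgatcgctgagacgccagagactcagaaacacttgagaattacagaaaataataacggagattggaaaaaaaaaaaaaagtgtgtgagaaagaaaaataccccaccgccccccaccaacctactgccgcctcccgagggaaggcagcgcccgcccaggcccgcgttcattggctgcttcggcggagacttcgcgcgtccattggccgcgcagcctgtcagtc
Foxf2 holds 2 such boxes side by side, whose first bases lie 196 and 191 bases before the start, Foxc1 holds 1 at 24 bases, and Foxo1 holds 0. Of the promoters not shown, that of Foxd1 holds 2 and those of Foxp1 hold 2, 0 and 3. Foxp1 was called in neither cell type, and Foxd1 was under the minimum for the test. Of 32851 promoters of the same length, 52% hold at least 1, so these matches are common. Neither CCACACCC, a longer form of the box, nor GTAAACA, a core that forkhead factors bind, was in the window of any of the 7 promoters on either strand, against 3.2% and 3.17% of all promoters. A match is a string of letters and not a bound site.

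Foxo1, the FoxO factor of insulin and growth factor signaling, fell in SMCs. It was 19.8, 16.6 and 16.5 TPM in Scr libraries and 13.0, 10.9 and 10.9 TPM in siKlf4 libraries, a log2 fold change of -0.57 (SE 0.114, adjusted p = 0.0118, limma). The PDGFR-β+ values were 6.75, 7.31 and 6.85 TPM in Scr libraries and 7.85, 8.20 and 7.54 TPM in siKlf4 libraries. The siKlf4 libraries there were above the Scr libraries by a small gap, with a log2 fold change of 0.15 (SE 0.0945, adjusted p = 0.23, limma). The effect was lower in SMCs by 0.72 on the log2 scale (SE 0.141, adjusted p = 0.00247, limma). Foxo1 shares 674 exon bases with the antisense gene Gm20402, which was at 0.436 TPM in 1 Scr library of SMCs and at 0 in the other 11 libraries.

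Its relatives in the FoxO class were not alike. Foxo3 was 144.2, 133.2 and 122.8 TPM in Scr libraries and 120.5, 100.5 and 102.1 TPM in siKlf4 libraries of SMCs (log2 fold change -0.31, SE 0.0968, adjusted p = 0.052, limma). In PDGFR-β+ cells it rose from 36.8 to 40.5 TPM with Scr to 51.7 to 53.3 TPM with siKlf4, by 0.42 (SE 0.0706, adjusted p = 0.00294, limma). The difference for Foxo3 was -0.73 (SE 0.119, adjusted p = 7.86e-04, limma), close in size to that of Foxo1. Foxo4 fell in both cell types, by 0.41 in SMCs (adjusted p = 0.0126) and by 0.43 in PDGFR-β+ cells (adjusted p = 0.0143, limma), and the latter call was lost without siKlf4 replicate 2 or 3 (adjusted p = 0.0522 and 0.05). The difference for Foxo4 was 0.028 (95% interval -0.26 to 0.31).

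Of 18 genes known as FoxO targets, 17 entered the test in each cell type. Whether FoxO factors take part in the values of these genes was not tested. In SMCs 8 of the 17 fell, against 12.9% of all genes, and 2 rose, Ccng2 and Cited2, with a median log2 fold change of -0.33. Without siKlf4 replicate 3 the count that fell was 3, and without Scr replicate 2 it was 5. Calls over all genes also dropped there, from 3910 to 2342 and 2539. Sesn1, a stress-induced inhibitor of mTORC1, went from 46.5 to 64.6 TPM with Scr to 21.6 to 29.4 TPM with siKlf4 and had the lowest p (log2 fold change -1.08, adjusted p = 0.00498, limma). Pdk4, a kinase that shuts off pyruvate dehydrogenase, fell by 0.39 (adjusted p = 0.00929), and Cited2, a CBP and p300 binding protein, rose by 0.48 (adjusted p = 0.00526, limma).

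In PDGFR-β+ cells 6 of the 17 rose, against 25.3% of all genes, and 2 fell, with a median of 0.17. Without Scr replicate 2 the count that fell was 5, and with quantile normalization it was 4. Calls over all genes were 5298 and 5614 there, against 5559 in the main fit. Cat, the peroxide-degrading enzyme catalase, fell there from 90.7 to 96.7 TPM with Scr to 22.5 to 24.7 TPM with siKlf4 (log2 fold change -1.96, adjusted p = 5.72e-06, limma). Irs2, an adaptor of the insulin receptor, rose by 1.03 (adjusted p = 1.09e-04), and Ccng2, a cyclin of cell cycle exit, rose by 0.58 (adjusted p = 7.4e-04, limma) and by 0.46 in SMCs (adjusted p = 0.0119). The second called gene to fall, Sod2, a mitochondrial superoxide dismutase, was named after its values were seen. Cat and Sod2 thus went against the 6 targets that rose there, but their fall was shared by SMCs. The SMC values were -0.49 for Cat (adjusted p = 0.0356, limma) and -0.33 for Sod2 (adjusted p = 0.014, limma). Ccng2 and Cited2 rose in both cell types, Cited2 by 0.915 in PDGFR-β+ cells (adjusted p = 0.00154, limma). Bcl6, also named after its values were seen, was called with opposite signs. It was at -0.40 in SMCs (adjusted p = 0.0124, limma) and at 0.62 in PDGFR-β+ cells (adjusted p = 0.00345, limma).

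Foxp1, a repressor made in many cell types of the lung, had the highest Scr mean of the 9 in both cell types and the largest SD between libraries. In SMCs its Scr libraries overlapped those of Foxf1, and with siKlf4 its mean was 61.1 TPM against 66.2 TPM for Foxf1. In SMCs it was 51.7, 53.5 and 101 TPM in Scr libraries and 50.4, 51.6 and 81.2 TPM in siKlf4 libraries, so replicate 3 stood apart in both groups. The PDGFR-β+ values were 104, 55.0 and 52.9 TPM in Scr libraries and 85.5, 67.6 and 75.7 TPM in siKlf4 libraries, with replicate 1 highest in both groups. The groups overlapped in both cell types, and the log2 fold changes were -0.13 (95% interval -0.82 to 0.55, adjusted p = 0.756, limma) and 0.17 (-0.40 to 0.75, adjusted p = 0.607, limma). A single library decides the second value, which was 0.48 without Scr replicate 1 (adjusted p = 0.0205, limma). Between the cell types the effects on Foxp1 differed by -0.31 (95% interval -1.24 to 0.63, adjusted p = 0.615, limma). Foxp1 shares 300 exon bases with Gm20696 on its own strand, which was at most at 0.875 TPM.

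A list of 34 other forkhead genes was matched in both tables, of which 13 entered the test in each cell type, with 2 higher and 1 lower in each. That is 3 of 13, against 28.5% of all genes called in SMCs and 40.6% in PDGFR-β+ cells, so neither count exceeds the background. In SMCs these were Foxm1, a driver of the cell cycle (0.97, adjusted p = 0.00512), Foxk2, a regulator of metabolism and autophagy (0.30, adjusted p = 0.023), and Foxo4. In PDGFR-β+ cells they were Foxo3, Foxn2 (0.27, adjusted p = 0.0288, limma) and Foxo4. The Foxk2 call was lost without the unnumbered siKlf4 library, Scr replicate 2 or siKlf4 replicate 2 or 3 (adjusted p up to 0.0813), with quantile normalization (0.055) and with the replicate block over the numbered columns (0.0691). The Foxn2 call was lost without Scr replicate 2 or 3 or any 1 siKlf4 library, with median-ratio scaling (0.18, adjusted p = 0.1), with quantile normalization (0.19, adjusted p = 0.0804) and with both cell types in a single fit (adjusted p = 0.106). The SMC minus PDGFR-β+ contrast was 0.91 for Foxm1 (adjusted p = 0.00341) and 0.35 for Foxk2 (adjusted p = 0.018, limma).

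**Figure D5:**
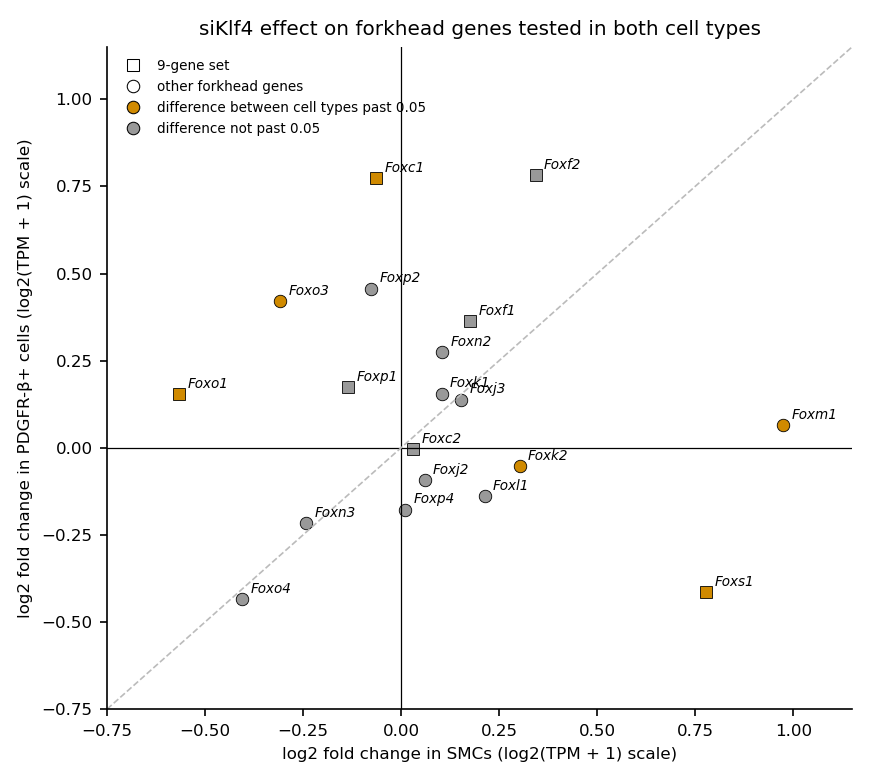
Log2 fold change of siKlf4 against Scr in SMCs (horizontal axis) and in PDGFR-β+ cells (vertical axis), both on the log2(TPM + 1) scale, for the listed forkhead genes tested in both, with squares for members of the set of 9 and circles for other forkhead genes, in orange where the difference between the cell types had an adjusted p under 0.05, and with a dashed line of equal effect. Foxc1, Foxo1 and Foxo3 lie above the line in orange, Foxs1, Foxm1 and Foxk2 lie below it in orange, and Foxo4 lies near it with a fall in both.

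Hedgehog signaling, in which ligands bind the receptor Ptch1, release Smo and act through the Gli factors, is known to raise FoxF and FoxC genes in mesenchyme. Of a list of 15 genes of the pathway 9 entered the test in PDGFR-β+ cells, where 4 rose, against 25.3% of all genes, and 0 fell, with a median log2 fold change of 0.41. Gli2, its main activator, rose from 0.919 to 1.31 TPM with Scr to 4.50 to 5.40 TPM with siKlf4 (log2 fold change 1.46, adjusted p = 2.35e-04, limma). Gli3, which acts mostly as a repressor, rose from 20.5 to 22.6 TPM with Scr to 32.8 to 37.1 TPM with siKlf4 (0.69, adjusted p = 6.68e-04). Sufu, which holds the Gli factors back, rose by 0.73 (adjusted p = 0.00118, limma). The other gene that rose was Ptch1, named after its values were seen, from 6.04 to 6.84 TPM with Scr to 9.42 to 11.9 TPM with siKlf4 (0.65, adjusted p = 0.00366, limma). The 4 hold activators as well as inhibitors of the pathway. Gli1, a common reporter of its activity, was at most at 0.106 TPM in PDGFR-β+ cells and 0.284 TPM in SMCs, under the minimum for the test. Whether the pathway takes part in the FoxF and FoxC values was not tested.

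In SMCs 10 of the 15 entered, with 1 higher and 2 lower, against 15.6% and 12.9% of all genes, and a median of -0.12. The 3 of 10 called are near the background of 28.5%. Boc, a coreceptor of hedgehog ligands, fell from 21.5 to 34.2 TPM with Scr to 10.0 to 16.6 TPM with siKlf4 (-1.08, adjusted p = 0.0136, limma). Gas1, another coreceptor, fell by 0.68 (adjusted p = 0.028), and Hhip, which binds the ligands and keeps them from Ptch1, rose from 0.457 to 0.716 TPM to 1.53 to 3.13 TPM (0.94, adjusted p = 0.0216, limma). The Gas1 and Hhip calls were each lost on leaving out Scr replicate 2 (adjusted p = 0.0701 and 0.0677). The Gas1 call was also lost without the unnumbered Scr library or siKlf4 replicate 2 or 3 (adjusted p up to 0.0901) and with no minimum level (0.0709). The Hhip call was also lost without Scr replicate 3 (adjusted p = 0.0552), over the numbered columns alone (0.0516) and with the replicate block over them (0.0718).

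For each forkhead gene above 1 TPM, the genes with the most similar profile over the 12 libraries were found by the root mean square (RMS) difference of log2(TPM + 1) values centred per gene, among 14371 genes. The nearest to Foxc1 were Pik3r1, a regulatory subunit of PI3 kinase (RMS 0.104 log2 units), and Klf11, a Krüppel-like repressor (0.125), against a spread of 0.595 for Foxc1 itself. For Foxo1 they were Adam23 (0.0791) and Draxin (0.0962), and its spread was 0.485. For Foxf1 they were Eif2d (0.0564) and Midn (0.0686), for Foxf2 Dcakd (0.0989) and Arf5 (0.102), and for Foxs1 Rnf126 (0.133) and Cyr61 (0.136). For Foxq1 they were Snrpf (0.121) and Brms1 (0.124), and for Foxc2 Clpp (0.0832) and Rpl36al (0.0961), against a spread of 0.15 for Foxc2. Foxp1 had the largest differences from its nearest genes, Gm4604 (0.199) and Rps15a-ps3 (0.219), against a spread of 0.376. Relative to its small spread, the nearest gene of Foxc2 was no closer than that of Foxp1. These profiles hold the level difference between the cell types, the siKlf4 effect and the spread within groups together.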

How the data were processed

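RNA was measured in 12 libraries by bulk RNA-seq (poly-A, strand-marked by dUTP). The authors trimmed reads, aligned them with HISAT2 to mm10 with GENCODE annotation and estimated abundance with StringTie and ballgown, and they deposited TPM values, with SMCs and PDGFR-β+ cells in separate tables and replicates not pooled. For their own test the authors used DESeq2 with gene counts, and no count table was analysed here. TPM sums to 1000000 in each library and holds no depth, and the precision is therefore that of 3 libraries per group, without an estimate of counting error. The methods call these 3 independent experiments. The SMC libraries are of 1 line, and how many sorts or animals the PDGFR-β+ libraries came from was not given in the sources used here, so p-values measure the spread between these libraries.

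Values were taken as log2(TPM + 1), and genes averaging 1 TPM or more within a cell type (6 libraries) were tested two-sided by limma 3.58.1 in R 4.3.3 (lmFit, eBayes with a mean-variance trend), with Benjamini-Hochberg adjustment and a threshold of 0.05. The difference between cell types was a contrast over the 12 libraries. Each fold change is on the log2(value + 1) scale, which understates changes of low genes. The script was tested on simulated data. Members and gene lists were chosen with earlier results of these data known. Genes named were the 9, other forkhead genes past the threshold, cluster neighbours, the 3 lowest p of the hedgehog and FoxO target lists, and the 2 nearest profiles of each member. 1 forkhead gene is not reported here. Marker lists of smooth muscle, mesenchyme, pericyte, endothelium, epithelium, macrophage and mesothelium gave the checks of cell type. Alternatives were other pseudocounts, minimums, scalings, variance models and samples in the fit. The ratios of gene pairs were added after seeing the data. Positions are from GENCODE M21 (GRCm38, the same build as mm10) and promoters from RefSeq (GRCm38.p6), used without the bases after the start. For SMCs, 1 column of each treatment has no replicate number and was used as a member of its group.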

Additional observations from a re-analysis of the deposited data

Results flagged for a closer look

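The siKlf4 effects in SMCs and PDGFR-β+ cells differed for 7 forkhead or neighbouring genes by the contrast over the 12 libraries (limma, Benjamini-Hochberg adjustment). Of all 13032 genes tested for this difference 33% were called, so such calls are common. Given as the SMC log2 fold change minus that of PDGFR-β+ cells, the difference was -0.84 for Foxc1 (adjusted p = 0.00159), -0.72 for Foxo1 (adjusted p = 0.00247), -0.73 for Foxo3 (adjusted p = 7.86e-04) and -1.74 for Fendrr (adjusted p = 1.5e-05). It was 1.19 for Foxs1 (adjusted p = 0.00266), 0.91 for Foxm1 (adjusted p = 0.00341) and 0.35 for Foxk2 (adjusted p = 0.018). Fendrr was called in each cell type with opposite signs, while Foxc1 and Foxo3 were called in PDGFR-β+ cells alone and Foxs1, Foxo1, Foxm1 and Foxk2 in SMCs alone. Each of the 7 differences kept its sign and its call in the 22 alternatives run for it, 12 of which left out 1 library each. Culture, source and table differ with the cell type and cannot be told apart from it.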

How the results depend on the processing

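The calls of Foxs1 and Foxo1 in SMCs and of Foxf1, Foxf2 and Foxc1 in PDGFR-β+ cells held in each alternative run. In SMCs the number of the 9 genes called was 2, and with a term for the unnumbered columns it was 4. Calls over all 13709 genes tested also went up with that term, from 3910 to 5492. In PDGFR-β+ cells it was 3, and 3 to 4 with 1 library left out. With the replicate number as a block it was 5, since Foxq1 and Foxs1 passed (adjusted p = 0.0463 for each, limma). Calls over all genes were 5641 with that block and 5559 without it. Same-numbered PDGFR-β+ libraries did not deviate together (correlations 0.0732, -0.0158 and 0.0043 over genes), and not every library was closest to its own number, so the libraries share a number and no known pairing. In SMCs the block over the numbered columns gave 2 calls. For the difference between the cell types the block gave 4 calls against 3, with Foxf2 added (-0.54, adjusted p = 0.0448). In PDGFR-β+ cells Foxq1 also passed without the mean-variance trend (adjusted p = 0.0348) and with both cell types in a single fit (0.016), and Foxs1 with quantile normalization (-0.55, adjusted p = 0.0253). With 1 library left out, uncalled values changed sign for Foxc1 in SMCs (-0.15 to 0.0035), Foxc2 in SMCs (-0.024 to 0.13) and PDGFR-β+ cells (-0.091 to 0.14), Foxp1 in SMCs (-0.35 to 0.18), the differences of Foxc2 (-0.11 to 0.13) and Foxp1 (-0.62 to 0.0044), and the Foxc1 to Foxc2 ratio in SMCs (-0.23 to 0.013). With no minimum level Foxq1 in SMCs had a log2 fold change of 0.34 (adjusted p = 0.0774). TPM keeps no depth, so for Foxd1 in both cell types and Foxq1 in SMCs, under 1 TPM, counting error cannot be set apart from spread between libraries.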
